A study of Mus musculus with 6 samples.

Results

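Lsd1, encoded by Kdm1a, and the genes of its CoREST complex were examined in mouse embryonic stem cells that carry either wild-type (WT) Trim71 or Trim71 with the R783H amino-acid change. The 9 genes were Kdm1a, its paralog Kdm1b, the scaffold genes Rcor1, Rcor2 and Rcor3, the deacetylase genes Hdac1 and Hdac2, and the accessory subunit genes Phf21a and Hmg20b. They were picked by name, as Lsd1, its paralog and known subunits of the complex, with earlier results of these data known, although the rule itself uses no measured value. All 9 were among the 27179 gene identifiers of the count table, and all 9 passed the filter on low counts that left 14199 tested genes. The cells were of the E14TG2a background, an established line, and in both groups a FLAG tag was carried by Trim71, which belongs to the TRIM-NHL proteins and binds RNA. Cells of both groups grew on gelatin in 2i + LIF medium, which holds them in naive pluripotency with an inhibitor each of MEK and GSK3. Poly(A)-selected RNA was sequenced from 3 libraries of R783H cells and 3 of WT cells, lettered A, B and C in each group. Whether the letters stand for separate clones, cultures or preparations is not stated in the labels, so p-values measure the spread between these libraries, which may be technical.

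Lsd1 is a flavin-dependent demethylase that removes mono- and dimethyl marks from lysine 4 of histone H3, and it acts on nucleosomes only when held by a CoREST scaffold protein. The scaffold, made from Rcor1, Rcor2 or Rcor3, joins Lsd1 to Hdac1 or Hdac2, so that acetyl and methyl marks are removed together. Factors such as REST bring the complex to neuronal genes outside neurons, and in embryonic stem cells Lsd1 is known for its part in silencing enhancers during differentiation.

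Library totals ran from 20894277 to 29079670 counts, and the shallowest R783H library had more counts than the deepest WT library. Log2 read counts scaled to a common total (CPM, here scaled by library size and a TMM factor) correlated at 0.9946 to 0.9963 within groups and at 0.9717 to 0.9771 between them. These are correlations across genes, which are not independent replicates. Trim71 itself stood at 144 ± 12.8 CPM (SD, n = 3) in R783H and 140.5 ± 16.4 CPM (SD, n = 3) in WT, and because R783H changes an amino acid this level does not check the labels. Its log2 fold change of 0.03 (SE 0.08) was not called, with an adjusted p of 0.743 in edgeR's test, and with an offset for transcript length and GC content it was -0.25, with an adjusted p of 0.0039. All 10 embryonic stem cell markers were detected, summing to 6661 to 6711 CPM in R783H and 7135 to 7246 CPM in WT. Markers of other cell types summed to far less. The 7 fibroblast markers gave 11.8 CPM in every R783H library and 10.7 to 11.7 CPM in WT. The 6 primitive endoderm markers gave 10.2 to 11.04 against 5.14 to 7.48 CPM, the 5 neural markers 36.2 to 39.9 against 34.1 to 34.3 CPM, and the 4 mesoderm markers 34.6 to 39.9 against 59.7 to 63.6 CPM. No marker of any list was at 0 in all 6 libraries. In R783H, 1 of the 10 embryonic stem cell markers was called higher and 5 lower. Called higher and lower were 1 and 1 of 4 tested fibroblast markers and 2 and 0 of 5 tested primitive endoderm markers. For neural markers these were 2 and 1 of 4 tested, and for mesoderm markers 0 and 3 of 3 tested. Some of these calls rest on few counts, and the markers concerned are named after their values were seen. Sox17, called higher, had 24, 25 and 30 counts in R783H and 9, 7 and 8 in WT. Thy1, called lower, had 2, 7 and 8 counts in R783H and 25, 34 and 28 in WT. Sox7 was lower in R783H, at 0.10 mean CPM against 0.67 in WT, but stayed under the filter and was not tested. Over all tested genes, 33.5% were called higher and 30.9% lower. The part of these differences in the results on single genes was not tested.

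In R783H cells the scaffold gene Rcor2 fell 1.97-fold and the histone-reader gene Phf21a rose 1.59-fold, and both stood clear of the spread between libraries. Rcor3 rose 1.41-fold from a low level, and Rcor1 rose by 12.9%. Kdm1a fell by 11.1%, Hdac1 fell by 10.5% and Hdac2 fell by 8.21%. Kdm1b and Hmg20b did not pass the test. A gene was called where its p from edgeR's quasi-likelihood test, adjusted over all tested genes by Benjamini-Hochberg, was under 0.05. Of the 9 genes, 7 were called (77.8%), beside 64.5% of all tested genes. There were 3 called higher and 4 called lower, where 33.5% of all tested genes were called higher and 30.9% lower. In 7 of the 9 the CPM of the groups did not overlap, and so it was in 68.1% of all tested genes. These shares lie near the background, and the count of calls sets nothing apart in these genes. Their median log2 fold change was -0.12, beside 0.03 over all tested genes, and their median size of change was 0.17 beside 0.34. Only Rcor2, Phf21a and Rcor3 changed by more than the median tested gene. A change at least as large as that of Rcor2 was seen in 9.72% of tested genes, one as large as that of Phf21a in 21% and one as large as that of Kdm1a in 73.2%. In RNA from bulk culture, fewer cells of a type and less RNA per cell cannot be told apart.

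**Figure D1:**
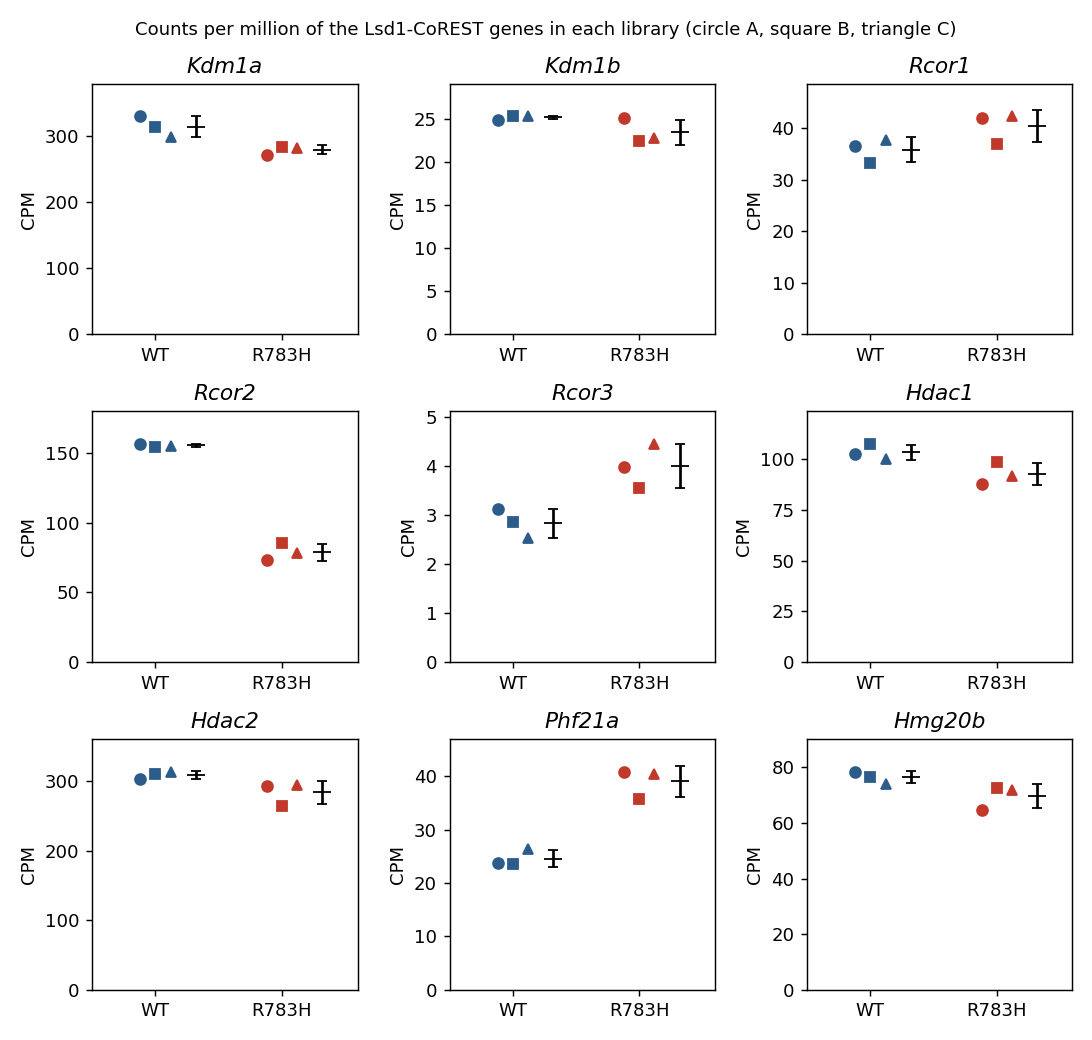
CPM of each of the 9 genes in the 3 WT libraries (blue) and the 3 R783H libraries (red), each panel on its own linear axis from 0, with the mean and SD of the group beside the points. The groups stand far apart for Rcor2 (73.4 to 85.3 CPM in R783H, 154 to 156 CPM in WT) and Phf21a (35.8 to 40.9 CPM against 23.6 to 26.4 CPM), and they overlap for Kdm1b and Rcor1.

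Kdm1a encodes the Lsd1 demethylase (Entrez 99982, chr4:136550533-136602787 on GRCm38). Its level was 272, 284 and 282 CPM in R783H A, B and C and 330.0, 314 and 299 CPM in WT A, B and C. All R783H values lay below all WT values, with 14.7 CPM between the nearest libraries of the groups. The means were 279 ± 6.72 CPM (SD, n = 3) and 314 ± 15.6 CPM (SD, n = 3). The log2 fold change of -0.17 (SE 0.05) was called, with an adjusted p of 0.00756 in edgeR's test. The call ended when libraries were scaled by their totals alone, with a log2 fold change of -0.09 and an adjusted p of 0.0979.

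Kdm1b encodes Lsd2, a paralog that acts without the CoREST scaffold and is known for demethylation over gene bodies and in oocytes (Entrez 218214, chr13:47043373-47085279). Its CPM were 25.1, 22.4 and 22.8 in R783H and 24.9, 25.3 and 25.3 in WT, so the groups overlapped through R783H A. The log2 fold change of -0.10 (SE 0.06) was not called by edgeR, with an adjusted p of 0.184. Without R783H A it was -0.17, also not called, with an adjusted p of 0.0558. An offset for transcript length and GC content brought it to -0.27, which was called with an adjusted p of 8.73e-04. Kdm1b shares 505 exon bases with Dek on the opposite strand, and whether counting used strand is not given in the sources used here. Reads of both genes may therefore be mixed. Dek stood at 185 ± 23.8 CPM (SD, n = 3) in R783H and 233 ± 17.3 CPM (SD, n = 3) in WT, a log2 difference of -0.33 (SE 0.09).

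The Rcor genes encode the scaffolds that hold Lsd1 and the deacetylases together. Rcor2, the form known for its high level in embryonic stem cells (Entrez 104383, chr19:7267394-7275225), gave 73.4, 85.3 and 77.9 CPM in R783H and 156, 154 and 155 CPM in WT. The WT libraries lay within 2.11 CPM of each other, and the highest R783H library was still 68.98 CPM below the lowest of them. Means were 78.9 ± 6.04 CPM (SD, n = 3) and 155 ± 1.06 CPM (SD, n = 3). The log2 fold change of -0.98 (SE 0.06) had an adjusted p of 1.61e-07 in edgeR's test. It was called in all 15 alternative settings, between -1.06 and -0.83.

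Rcor1, the first CoREST protein described (Entrez 217864, chr12:111039367-111115902), gave 42.1, 37.0 and 42.3 CPM in R783H and 36.6, 33.2 and 37.8 CPM in WT. Here the groups overlapped, since R783H B lay below WT C. Means were 40.5 ± 3.02 CPM (SD, n = 3) and 35.9 ± 2.39 CPM (SD, n = 3), which is 0.18 (SE 0.07) as a log2 fold change with an adjusted p of 0.0484 in edgeR's test. The call was kept in 6 of 15 alternatives and ended under DESeq2, limma-voom, RLE scaling, equal depth, and without R783H A, R783H C, WT A or WT B. The direction turned with the length and GC offset, to -0.02 (SE 0.06). Of the exon bases of Rcor1, 53 are shared with Gm48632 on the same strand.

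Rcor3 encodes the third scaffold of the family (Entrez 214742, chr1:192098546-192138074). It had 120, 101 and 132 counts in R783H and 63, 70 and 54 counts in WT. As CPM these were 3.99, 3.56 and 4.46 against 3.12, 2.85 and 2.53, and the groups did not overlap. The log2 fold change of 0.50 (SE 0.14) had an adjusted p of 0.00943 in edgeR's test and was called in all 15 alternatives. Rcor3 shares 336, 667 and 133 exon bases with Gm10516, Gm26879 and Gm37055 on the opposite strand, so its counts, the lowest of the 9 genes, are uncertain to that extent.

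Rcor2 and Rcor1 encode scaffolds of the same family, and they differed in direction in the fit reported but not with the length and GC offset. The 250 bases before their annotated starts are shown, taken from RefSeq on GRCm38.p6. The Rcor1 window is chr12:111039117-111039366 and the Rcor2 window is chr19:7267144-7267393, both on the plus strand. Both are written 5′ to 3′, and capitals mark the E-box CACGTG, the GC box GGGCGG or CCGCCC, and the CCAAT box CCAAT or ATTGG, each thus searched on both strands.
Rcor1: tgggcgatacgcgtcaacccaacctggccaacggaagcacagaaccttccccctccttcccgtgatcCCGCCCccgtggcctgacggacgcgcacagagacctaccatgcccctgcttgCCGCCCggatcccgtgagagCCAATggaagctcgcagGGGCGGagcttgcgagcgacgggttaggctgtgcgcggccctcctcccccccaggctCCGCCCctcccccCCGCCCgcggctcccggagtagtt
Rcor2: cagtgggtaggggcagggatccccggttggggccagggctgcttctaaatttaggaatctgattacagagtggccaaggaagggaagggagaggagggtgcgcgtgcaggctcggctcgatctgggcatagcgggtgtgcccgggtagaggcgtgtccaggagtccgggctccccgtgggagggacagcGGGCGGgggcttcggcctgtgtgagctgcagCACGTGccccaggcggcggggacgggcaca
The Rcor1 window held 5 GC boxes, 1 CCAAT box and no E-box. The Rcor2 window held 1 E-box, which began at position -30 from the start, 1 GC box and no CCAAT box. Over 32851 windows of the same length in RefSeq's genes, 6.02% held the E-box letters, 32.7% a GC box and 33.8% a CCAAT box. GC content was 70.4% in Rcor1 and 67.6% in Rcor2, beside a median of 52.4% over all windows. Rcor1 had 25 CpG and Rcor2 had 17, beside a median of 6. These matches describe letters, and no binding was measured here.

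The make-up of the scaffold mRNA pool was compared per length, as CPM per kb of the longest annotated transcript. The summed level of the 3 Rcor genes was 36.1 ± 1.61 CPM per kb (SD, n = 3) in R783H and 62.1 ± 0.742 CPM per kb (SD, n = 3) in WT. Rcor2 made up 75.5%, 80.2% and 76.2% of that sum in R783H A, B and C, and 88.4%, 89.2% and 88.3% in the WT libraries. Rcor2 was thus the main form in every library, with a lower share in all 3 R783H libraries. Rcor1 made up 21.5%, 17.3% and 20.6% in R783H and 10.3%, 9.53% and 10.7% in WT. Rcor3 held 2.93 ± 0.392% (SD, n = 3) in R783H and 1.20 ± 0.123% (SD, n = 3) in WT. With all exons of a gene merged as its length, Rcor3 held 0.910 ± 0.122% and 0.373 ± 0.0384% (SD, n = 3).

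Ratios of 2 counts inside a library do not depend on how libraries are scaled, and 5 paralog ratios were compared, of which 4 are given here. There were 1.75, 2.31 and 1.84 Rcor2 counts per Rcor1 count in R783H A, B and C. In WT A, B and C there were 4.27, 4.65 and 4.11. The groups did not overlap, and the ratio was 2.22-fold lower in R783H (log2 difference -1.15). The exact two-sided permutation test gave p = 0.1, the smallest that 3 against 3 libraries allow, and 0.167 after adjustment over the 5 ratios, so no ratio could pass. The fitted log2 fold changes of Rcor2 and Rcor1 differed by -0.81 with the length and GC offset. Rcor3 per Rcor1 was 1.25-fold higher in R783H, without overlap and at an exact p of 0.1 (0.167 adjusted). Its log2 difference of 0.32 was 0.21 without WT C. Kdm1b per Kdm1a differed by 0.06 on the log2 scale (exact p = 0.6, 0.75 adjusted) and Hdac2 per Hdac1 by 0.03 (exact p = 0.8, 0.8 adjusted). In those pairs the groups overlapped, and the sign of the difference turned without R783H A, to -0.0074 and -0.03.

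**Figure D2:**
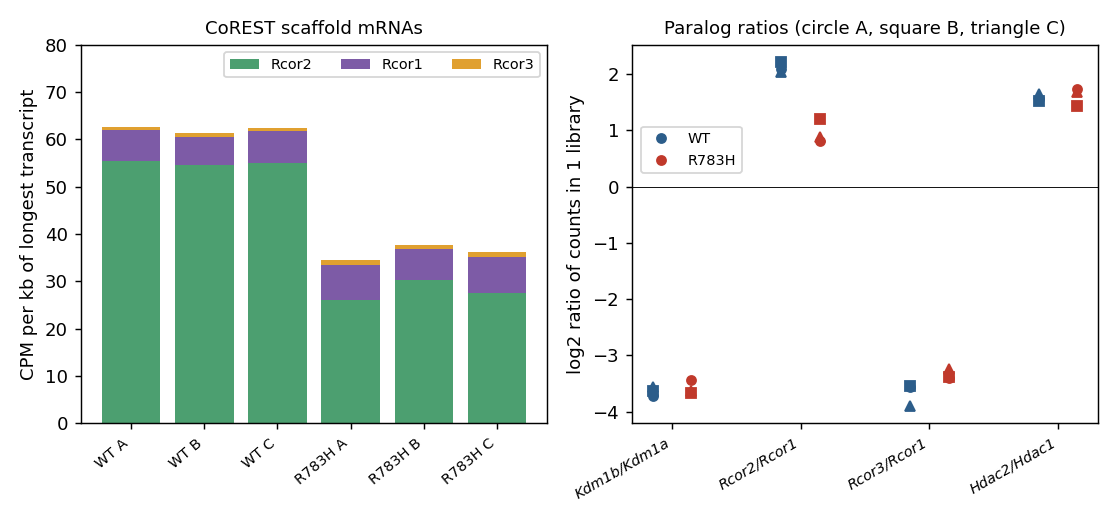
Left, stacked CPM per kb of longest transcript of Rcor2, Rcor1 and Rcor3 in each library. Right, log2 ratio of the counts of paralog pairs in each library of WT (blue) and R783H (red). The stacks reach 61.3 to 62.7 CPM per kb in WT and 34.5 to 37.7 in R783H, and the log2 Rcor2/Rcor1 ratio lies between 2.04 and 2.22 in WT and between 0.80 and 1.21 in R783H.

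Hdac1 and Hdac2 encode the deacetylases of the complex, which also serve in the NuRD and Sin3 complexes. Hdac1 (Entrez 433759, chr4:129516104-129542646) gave 87.7, 98.5 and 91.6 CPM in R783H and 103, 108 and 100.1 CPM in WT. The groups did not overlap, but R783H B and WT C lay only 1.54 CPM apart. Its log2 fold change of -0.16 (SE 0.05) had an adjusted p of 0.0222 in edgeR's test. The call ended with library size alone and without R783H A, R783H C, WT A or WT B. Hdac1 has a near-identical copy, Gm10093 (99.4% over 1444 nt), which is not a row of the count table, and how its reads were counted is not known.

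Hdac2 (Entrez 15182, chr10:36974297-37001889) gave 293, 264 and 294 CPM in R783H and 303, 311 and 314 CPM in WT. R783H B was the low library, and the other R783H libraries lay close under WT A. The log2 fold change of -0.12 (SE 0.05) had an adjusted p of 0.0436 in edgeR's test. This call was kept in 9 of 15 alternatives. It ended with library size alone, with either other filter on low counts, and without WT A, WT B or WT C.

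Phf21a encodes BHC80, the subunit that reads histone H3 unmethylated at lysine 4, the product of Lsd1 (Entrez 192285, chr2:92183751-92364667). It gave 40.9, 35.8 and 40.5 CPM in R783H and 23.7, 23.6 and 26.4 CPM in WT. Every R783H library was at least 9.37 CPM above every WT library. Means were 39.1 ± 2.84 CPM (SD, n = 3) and 24.6 ± 1.61 CPM (SD, n = 3). The log2 fold change of 0.67 (SE 0.07) had an adjusted p of 1.16e-05 in edgeR's test and was called in all 15 alternatives. It was lower, at 0.44, with the length and GC offset. Its longest transcript has 6332 nt, beside a median of 3253 nt over tested genes.

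Hmg20b encodes BRAF35, the HMG-box subunit that binds DNA (Entrez 15353, chr10:81346046-81350943). It gave 64.7, 72.6 and 71.8 CPM in R783H and 78.5, 76.6 and 74.1 CPM in WT. The groups did not overlap, with R783H B 1.59 CPM below WT C. The log2 fold change of -0.13 (SE 0.06) was not called, with an adjusted p of 0.0534 in edgeR's test. It was called under DESeq2, RLE scaling and equal depth and without R783H B, and it was -0.0049 with the length and GC offset.

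**Figure D3:**
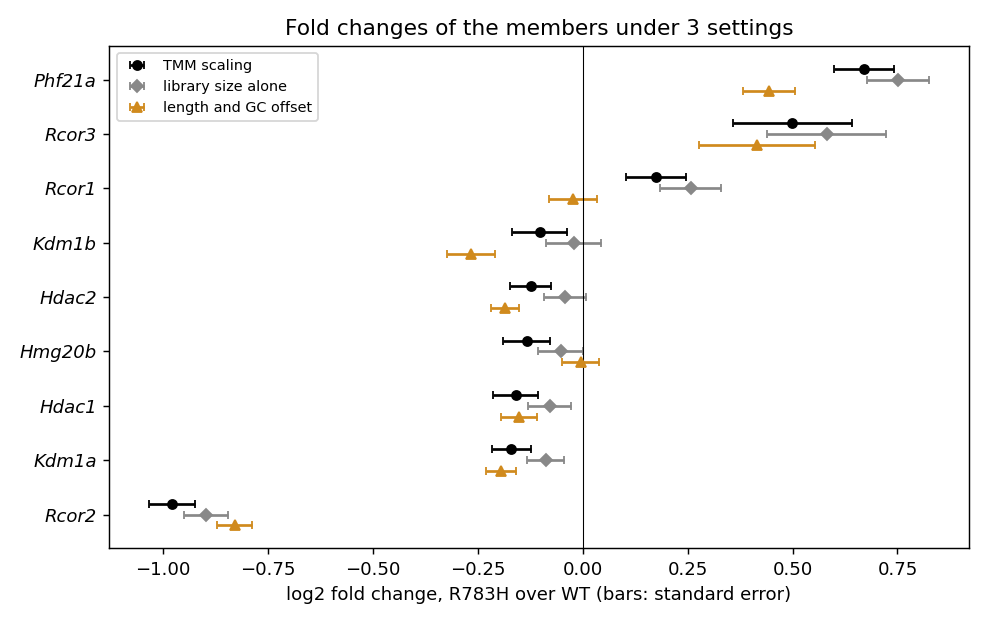
Log2 fold change of R783H over WT for the 9 genes with TMM scaling (black circles), library size alone (grey diamonds) and the length and GC offset (orange triangles). Bars are standard errors. Rcor2 lies between -0.98 and -0.83 and Phf21a between 0.44 and 0.75 in these settings, while Rcor1 is on either side of 0.

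Per length, the genes spanned a wide range of levels in WT. Kdm1a was highest at 104 ± 5.15 CPM per kb (SD, n = 3) and Hdac2 followed at 95.1 ± 1.70 CPM per kb (SD, n = 3), with no overlap between their WT libraries. Rcor2 had 55.0 ± 0.374 and Hdac1 50.8 ± 1.87 CPM per kb (SD, n = 3), again without overlap in WT. Hmg20b followed at 30.6 ± 0.876 CPM per kb (SD, n = 3). The other genes lay far lower. Rcor1 had 6.31 ± 0.420, Kdm1b 5.04 ± 0.0428, Phf21a 3.88 ± 0.255 and Rcor3 0.748 ± 0.0777 CPM per kb (SD, n = 3). In R783H the order changed at 2 places. Hdac1, at 45.5 ± 2.68 CPM per kb (SD, n = 3), stood above Rcor2, at 27.9 ± 2.14, and Phf21a, at 6.17 ± 0.448, stood above Kdm1b, at 4.70 ± 0.298. Rcor2 and Hmg20b, at 27.9 ± 1.73 CPM per kb (SD, n = 3), overlapped in R783H, as did Kdm1a and Hdac2. The libraries of other neighbours in these orders did not overlap within a group. With all exons of a gene merged as its length, Hdac2 stood above Kdm1a (69.1 and 60.7 CPM per kb in WT) and the order of the other genes was unchanged.

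The pattern of Kdm1a over the 6 libraries was compared with that of 4642 genes that averaged at least 50 CPM. The measure was the root-mean-square distance of log2 CPM after each gene was centred on its own mean. The nearest genes were Upf1, a helicase of nonsense-mediated decay, at 0.0173, Dusp27 at 0.0214, Clptm1l at 0.0220, the nuclear pore gene Pom121 at 0.0236 and the Sin3 subunit gene Suds3 at 0.0236. Their log2 fold changes lay between -0.20 and -0.17, close to that of Kdm1a because they were chosen by this distance over the same libraries. Among the 9 genes, Hmg20b lay nearest to Kdm1a, at 0.0407. Hmg20b was also nearest to Hdac1, at 0.0436, and Kdm1b and Hdac2 were nearest to each other, at 0.0481. Rcor3 and Phf21a were nearest to each other, at 0.171. Rcor2 lay farthest from its nearest member, Kdm1a, at 0.410, and Phf21a was the member farthest from it, at 0.834. Genes outside the 9 were searched for Kdm1a alone.

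Further factors known to copurify with the complex or to recruit it were tested as a list. Of 12 tested genes of the 15, 6 were higher, 2 lower and 4 not called, with a median log2 fold change of 0.22 beside 0.03 over all tested genes. The share called was near the 64.5% of all tested genes. Rreb1, a zinc-finger factor that binds CtBP, rose from 81.1 ± 1.20 CPM (SD, n = 3) in WT to 141 ± 9.19 CPM (SD, n = 3) in R783H, which is 0.79 (SE 0.05) as a log2 fold change. It was 0.48 with the length and GC offset. The corepressor gene Ctbp2 fell from 222 ± 1.71 CPM (SD, n = 3) to 165 ± 9.79 CPM (SD, n = 3), which is -0.43 (SE 0.05) as a log2 fold change. Phf21b, the paralog of Phf21a, rose by 0.38 (SE 0.12) on the log2 scale from 4.11 to 5.33 mean CPM. Its call ended under DESeq2 and without R783H A, WT B or WT C. Without WT B, 5 of the 12 genes were called, 4 higher and 1 lower, beside 8161 of 14470 over all tested genes. The length and GC offset gave 5 genes higher and 4 lower, beside 4219 higher and 5059 lower of 13763 over all tested genes.

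REST, the zinc-finger repressor that recruits CoREST to neuronal genes, was looked at together with its targets, and Rest itself was chosen after its values were seen. It gave 193, 159 and 189 CPM in R783H and 122, 129 and 168 CPM in WT, so R783H B lay below WT C. The log2 fold change of 0.37 (SE 0.11) had an adjusted p of 0.0103 in edgeR's test. It was 0.12 and not called with the length and GC offset, and it was also not called under DESeq2 or without WT B. Of the 18 neuronal target genes that had a count row, 12 were tested. There were 8 higher, 3 lower and 1 not called, where 33.5% of all tested genes were called higher and 30.9% lower. The median log2 fold change was 0.45 beside 0.03 over all tested genes. The other 6 stayed under the filter, so these counts cover the tested genes alone. With at least 10 counts required in every library, 11 were tested, with 7 higher, 3 lower and a median of 0.37. That filter gave 4541 higher and 4172 lower of 13069 genes. The neurofilament gene Nefm rose from 5.02 ± 0.172 CPM (SD, n = 3) in WT to 14.5 ± 1.64 CPM (SD, n = 3) in R783H, which is 1.53 (SE 0.11) as a log2 fold change. Stmn3, which encodes a microtubule-destabilising stathmin, fell by 1.11 (SE 0.11) on the log2 scale. Chga, which encodes a protein of secretory granules, fell by 0.94 (SE 0.08). The offset for length and GC gave 7 genes higher, 2 genes lower and a median log2 fold change of 0.26, beside -0.03 over all tested genes. The 5 neural markers, summing to 36.2 to 39.9 CPM in R783H and 34.1 to 34.3 CPM in WT, stood higher as a sum in the same libraries. The single markers, named after their values were seen, did not move together. Mean CPM was higher in R783H for Sox1 (13.5 against 8.51 in WT) and Map2 (2.38 against 1.22). It was lower for Nes (21.6 against 23.5), Neurod1 (0.33 against 0.67) and Pax6 (0.07 against 0.28). Of the 4 neural markers tested, 2 were called higher and 1 lower, and their part in the counts of the REST target list was not tested.

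Genes of the 2-cell-like state, known to be repressed by Lsd1 in embryonic stem cells, showed no detectable difference at this depth. Of 14 genes of the Zscan4, Usp17l and Tcstv families and Zfp352, 8 were tested, and 0 were called by edgeR, 0 by DESeq2 and 0 by limma-voom. In edgeR's test 0 reached an unadjusted p under 0.05, where 64.5% of all tested genes were called. Counts of these 8 genes were low, so the 2 shares are not directly comparable. The highest group mean of a tested gene was 0.874 CPM, and log2 fold changes ran from -0.23 to 0.46. Members of these families resemble each other closely, so reads may be split among them.

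**Figure D4:**
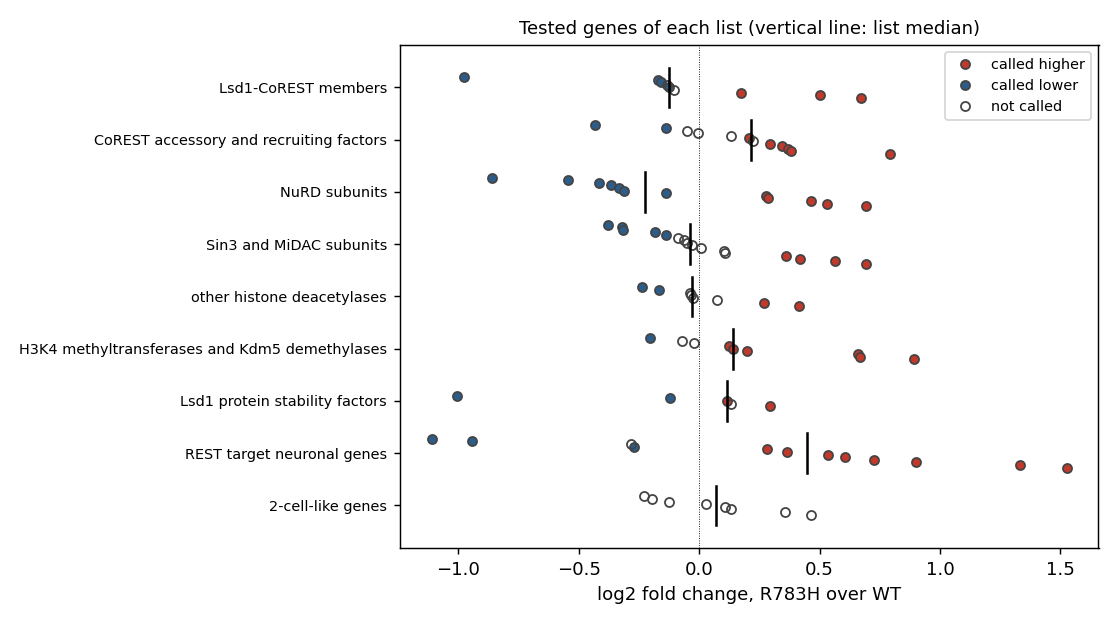
Log2 fold change of R783H over WT for each tested gene of the 9 Lsd1-CoREST genes and 8 related lists, with red points called higher, blue points called lower and open points not called. Black lines mark list medians, from -0.23 for NuRD subunits to 0.45 for REST targets, and the 2-cell-like genes have open points alone.

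Regulators of Lsd1 protein turnover were measured as 5 genes, of which 2 were higher, 2 lower and 1 not called (median log2 fold change 0.11), beside 64.5% of all tested genes called. Jade2, reported to encode an E3 ligase for Lsd1, gave 14.5, 15.2 and 16.4 CPM in R783H and 30.1, 32.6 and 29.8 CPM in WT. All R783H libraries were far below WT, and the log2 fold change of -1.01 (SE 0.07) was called in all 15 alternatives. Usp28, which encodes a deubiquitinase known to stabilise Lsd1, rose from 101 ± 1.35 CPM (SD, n = 3) to 124 ± 4.40 CPM (SD, n = 3), which is 0.30 (SE 0.04) as a log2 fold change. Usp7, also a deubiquitinase, fell by 0.12 (SE 0.04) on the log2 scale, a call that ended with library size alone and without WT A, WT B or WT C. The length and GC offset brought it to -0.26. Without WT B or WT C 2 of the 5 genes were called, beside 8161 of 14470 and 8594 of 14440 over all tested genes. Protein levels were not measured here.

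Hdac1 and Hdac2 are shared with NuRD, a nucleosome-remodelling complex. All 12 of its further subunit genes listed here were called, where 64.5% of all tested genes were. Of these 12 genes, 5 rose and 7 fell, and the median log2 fold change was -0.23 beside 0.03 over all tested genes. The length and GC offset, library size alone, and leaving out R783H C or WT A each gave 11 called. Mta1 rose from 80.9 ± 3.37 CPM (SD, n = 3) in WT to 131 ± 3.88 CPM (SD, n = 3) in R783H. Its paralog Mta2 fell from 365 ± 8.52 CPM (SD, n = 3) to 251 ± 17.7 CPM (SD, n = 3), and both encode subunits that hold the deacetylases. Their log2 fold changes were 0.69 (SE 0.05) and -0.54 (SE 0.05). Cdk2ap1, a small subunit gene, fell from 25.2 ± 3.60 CPM (SD, n = 3) to 13.9 ± 0.42 CPM (SD, n = 3), which is -0.86 (SE 0.10) as a log2 fold change. Other subunit genes are given as chosen after their values were seen. The third Mta gene, Mta3, had a log2 fold change of 0.28, and the histone-binding subunit genes Rbbp4 and Rbbp7 were both called lower, at -0.42 and -0.31. The remodeller genes had log2 fold changes of 0.47 (Chd3) and -0.33 (Chd4). The GATA-type subunit genes had 0.53 (Gatad2b) and -0.14 (Gatad2a), and the methyl-CpG-binding subunit genes 0.28 (Mbd2) and -0.37 (Mbd3).

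Of 16 subunit genes of the Sin3 and MiDAC complexes, which also hold Hdac1 and Hdac2, 4 were higher, 5 lower and 7 not called, beside 64.5% of all tested genes called, with a median log2 fold change of -0.04. Library size alone gave 6 higher, 3 lower and a median of 0.04, beside a median of 0.11 over all tested genes. Trerf1, a MiDAC subunit gene, rose from 13.6 ± 0.541 CPM (SD, n = 3) in WT to 21.9 ± 0.579 CPM (SD, n = 3) in R783H, which is 0.69 (SE 0.07) as a log2 fold change. The Sin3 subunit genes Arid4b and Arid4a rose by 0.56 (SE 0.12) and 0.42 (SE 0.11) on the log2 scale. R783H B was the lowest R783H library for both genes, and for Arid4a, at 26.9 CPM, it lay below WT C at 27.6 CPM. With the length and GC offset these 3 genes were at 0.46, 0.32 and 0.25.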

How the data were processed

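The authors deposited 1 table of whole-number read counts, in which rows are Entrez Gene identifiers and columns are the 6 libraries. Per the submitters' processing notes CASAVA 1.4, HISAT2 and SAMtools were used and the build was mm10. The counting tool, annotation and use of strand are not given in the sources used here. The table had 0 unassigned columns. Symbols came from RefSeq (GRCm38.p6), which matched 25275 of 27179 identifiers, and 6989 identifiers had no count. Positions, transcript lengths and exon overlaps came from the annotation of GRCm38, and near-identical copies from BLAST 2.17.0 at 98% identity or more over 100 nt or more. RefSeq's upstream windows matched 8 of the 9 genes.

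Tests used R 4.3.3 with edgeR 4.0.16 (filterByExpr minimum count 10, minimum total 15, TMM factors, quasi-likelihood test with group as the single term). A gene was called at an adjusted p under 0.05. SE is the log2 fold change divided by the square root of the F value. The common biological coefficient of variation was 5.45%. Log2 CPM for distances used a prior count of 2. Every pair of libraries differed by more than sampling noise. The alternatives were RLE factors, library size alone, 2 other filters, DESeq2 1.42.0, limma-voom 3.58.1, a length and GC offset (mgcv 1.9.3, 13763 genes), a replicate block, equal depth at 20894277 counts, and leaving out each library. Without molecular identifiers, reads cannot be taken as independent molecules.

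The members and lists were chosen with earlier results of these data known, so no list was set-tested. From each list up to 3 called genes with the largest change and at least 50 mean counts in the higher group are named, together with the 5 genes nearest to Kdm1a in pattern and all 9 members. Other genes are named as chosen after their values were seen, apart from Trim71 and genes sharing sequence. A paralog ratio that was computed, and its gene, are not reported here.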

Additional observations from a re-analysis of the deposited data

How the results depend on the processing

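Of 135 member fold changes under the alternatives, 109 kept their direction and side of the threshold, 20 lost the call, 5 gained it and 1 turned, Rcor1 at -0.023 with the length and GC offset. Members called numbered 7 in the fit reported, 4 with library size alone, and 4 to 8 on leaving out a library (4 without WT A or WT B, 8 without R783H B). All genes called numbered 9152, and 8161 to 9882 on leaving out a library. Library size alone moved the median of all genes by 0.08 and gave 3 members higher and 1 lower. RLE factors, DESeq2, the offset and equal depth each gave 2 higher and 5 lower. Of calls over all genes 52.0% were higher, and 61.2% with library size alone. Trim71 stood at 0.03, at -0.25 with the offset and at -0.022 to 0.13 on leaving out a library. Leaving out a library gave -0.0074 to 0.11 for the log2 Kdm1b/Kdm1a ratio and -0.027 to 0.13 for Hdac2/Hdac1, both turned without R783H A. Rcor1, Hdac1 and Hdac2 lie close to the threshold, and Rcor3 rests on 54 to 132 counts a library. The cause of these shifts was not tested.

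Deviations of same-lettered libraries from their group means correlated at -0.06995, 0.006822 and 0.08511. Those of libraries with different letters correlated at -0.1332 to 0.1264. The same-lettered pairs did not stand out, but 3 libraries a group cannot settle whether the letters pair the libraries. With the letter as a replicate block, 7 members and 9260 genes were called.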

Other observations

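Enzymes that write or erase methylation at lysine 4 of histone H3 were also measured. Of 9 such genes, the Kmt2 and Setd1 methyltransferases and the Kdm5 demethylases, 6 were higher in R783H, 1 lower and 2 not called by edgeR's test, with a median log2 fold change of 0.14 beside 0.03 over all tested genes, of which 33.5% were called higher and 30.9% lower. Kmt2c, which encodes an enhancer methyltransferase, rose from 55.6 ± 4.999 CPM (SD, n = 3) in WT to 103 ± 13.1 CPM (SD, n = 3) in R783H, which is 0.89 (SE 0.09) as a log2 fold change. Kmt2a rose by 0.67 (SE 0.08) and Kmt2d by 0.66 (SE 0.07) on the log2 scale. The longest transcripts of these 3 genes have 14967, 16470 and 19823 nt. With the length and GC offset their log2 fold changes were 0.43, 0.18 and 0.21, the list had 3 genes higher and 4 lower, and its median was -0.09. Over all tested genes the offset gave 4219 higher and 5059 lower of 13763, and a median of -0.03. Without WT B 4 of the 9 genes were called, 3 higher and 1 lower, beside 8161 of 14470 over all tested genes.

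Deacetylases outside the complex split as well, with 2 of 8 tested genes higher, 2 lower and 4 not called and a median log2 fold change of -0.03, or 0.05 with library size alone. Over all tested genes 64.5% were called, and library size alone gave a median of 0.11. Hdac4, a class IIa deacetylase gene, rose from 18.9 ± 0.903 CPM (SD, n = 3) to 25.2 ± 0.772 CPM (SD, n = 3), which is 0.41 (SE 0.06) as a log2 fold change, or 0.15 with the length and GC offset. Hdac11 rose by 0.27 (SE 0.09), a call that ended under DESeq2 and without R783H A, R783H B or WT C. Hdac7 fell by 0.24 (SE 0.07), a call that ended with library size alone.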
